A study of Homo sapiens with 72 samples.

Results

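The mRNAs described here encode the subunits of the mitochondrial respiratory chain and ATP synthase that are made from nuclear genes. They were chosen by name, as the rows of the count table whose gene symbols begin as those of NADH dehydrogenase (NDUFA, NDUFB, NDUFC, NDUFS and NDUFV with a number), succinate dehydrogenase (SDHA to SDHD), the cytochrome bc1 complex (UQCR), cytochrome c oxidase (COX4 to COX8) and ATP synthase (ATP5F, ATP5M and ATP5P). The names matched 90 of 44659 rows. After UQCRBP1, a pseudogene, was left out, 89 rows remained, of which 36 belong to complex I, 4 to complex II, 9 to complex III, 18 to complex IV and 18 to complex V. The other 4 are the read-through transcript ATP5MF-PTCD1, the divergent transcript UQCRFS1-DT and the extra-copy rows COX8C_1 and UQCRC2_1.

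Complexes I to IV carry electrons from NADH and succinate to oxygen and, apart from complex II, pump protons across the inner mitochondrial membrane. Complex V uses the proton gradient to make ATP. Most subunits are translated in the cytosol and imported, and they join a small set of subunits encoded by mitochondrial DNA, which have no row in the table used here.

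All libraries came from A375, a human skin melanoma line, and counted 3' ends of polyadenylated cytoplasmic RNA (QuantSeq). In the siRNA experiment, cells received siRNA against CTU2 (siCTU2, a pool of 2 sequences) or the control siRNA siGL2 for 42 h. CTU2 is a subunit of the enzyme that thiolates the wobble uridine of some cytosolic tRNAs, and GL2 is a firefly luciferase sequence that human cells lack. In the medium experiment, cells were kept for 18 h without glutamine (mQ) or with it (pQ). Cells of all 4 conditions were then given 25 µM triptolide, which blocks transcription (T arm), or triptolide with 100 µg/ml cycloheximide, which blocks translation (TCHX arm), and were harvested at once (0 h) or after 3 h or 5 h, with 3 libraries for each of 24 groups. No group lacked triptolide, so the 0 h groups stand for untreated levels only as far as immediate harvest allows. Nothing in the labels says that replicates were separate cultures, so p-values measure the spread between these libraries, which may be technical.

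The 72 libraries held 5987692 to 15534331 counts each, and the members took 1.54% to 2.38% of them (median 1.98%). CTU2 averaged 1.76 CPM (counts scaled to library size) in siCTU2 and 22.4 CPM in siGL2 in the T arm at 0 h. The library labelled siCTU2 TCHX 5 h replicate 3 went against its label, with 10.4 CPM against 0.203 and 0.168 CPM in the other two. Of 10 melanocyte lineage markers, SOX10, MITF, PMEL, DCT, S100B and S100A1 were above 1 CPM in every T arm library at 0 h, MLANA and PRAME were below 1 CPM in all of them, and TYR and TYRP1 had medians of 0.439 and 0.713 CPM. Of the markers of other cell types, 11 of 12 were under 1 CPM in all of these libraries.

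The filter on low counts was passed by 70 of 89 members in each 0 h comparison and left the other 19 untested. Among the 19 are muscle, testis and other tissue-restricted isoforms of complex IV. COX6A2, COX7A1 and COX8C had 0 counts in all 72 libraries, as did COX8C_1 and ATP5MF-PTCD1, while COX4I2 had 2 and COX6B2 had 9 counts in all. Their widely expressed counterparts were present in every T arm library at 0 h. COX6A1 had a mean of 406 ± 13.2 CPM (SD, n = 3), COX7A2 439 ± 31.3 CPM and COX8A 500.2 ± 20.6 CPM in siGL2.

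The other untested members include subunits that cells with a respiratory chain cannot do without. SDHB, the iron-sulfur subunit of complex II, had 315 counts over all libraries, COX5B 33, NDUFB10 22, NDUFA3 28 and NDUFA6 6. The core complex I subunits NDUFS1 and NDUFS3 had 200 and 85, and UQCRC2, a core subunit of complex III, had 485. Extra-copy rows, named by the symbol and a copy number, exist for 7 members, and that of NDUFS3 held 1119 counts. These counts therefore do not give the level of these mRNAs, and how reads were assigned to them was not tested. UQCRHL is a near-copy of UQCRH and ATP5MGL of ATP5MG, so their values below may include reads of the other gene.

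The first question was how the members differed between siCTU2 and siGL2 cells at 0 h. One complex IV mRNA, COX4I1, fell most, and one complex III mRNA, UQCR10, rose most, while the median member stood at 0.064 on the log2 scale. Of 70 members tested, 15 were higher and 6 lower (edgeR quasi-likelihood test, Benjamini-Hochberg adjusted p under 0.05), when 17.8% of all 12292 genes were higher and 18.2% lower. The share of higher members was near that background and the share of lower members was under it. The summed level of the melanocyte lineage markers was 858 to 1080 CPM in these siCTU2 libraries and 1080 to 1243 CPM in siGL2. That of 10 short-lived mRNAs, among them JUN, FOS and EGR1, was 721 to 850 CPM in siCTU2 and 444 to 517 CPM in siGL2. The part of either in the member values was not tested. By complex, 7 of 30 complex I members were higher and 3 lower, 2 of 3 in complex II were higher, 2 of 8 in complex III were higher, 1 of 11 in complex IV was higher and 1 lower, and 3 of 18 in complex V were higher and 2 lower.

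**Figure D1:**
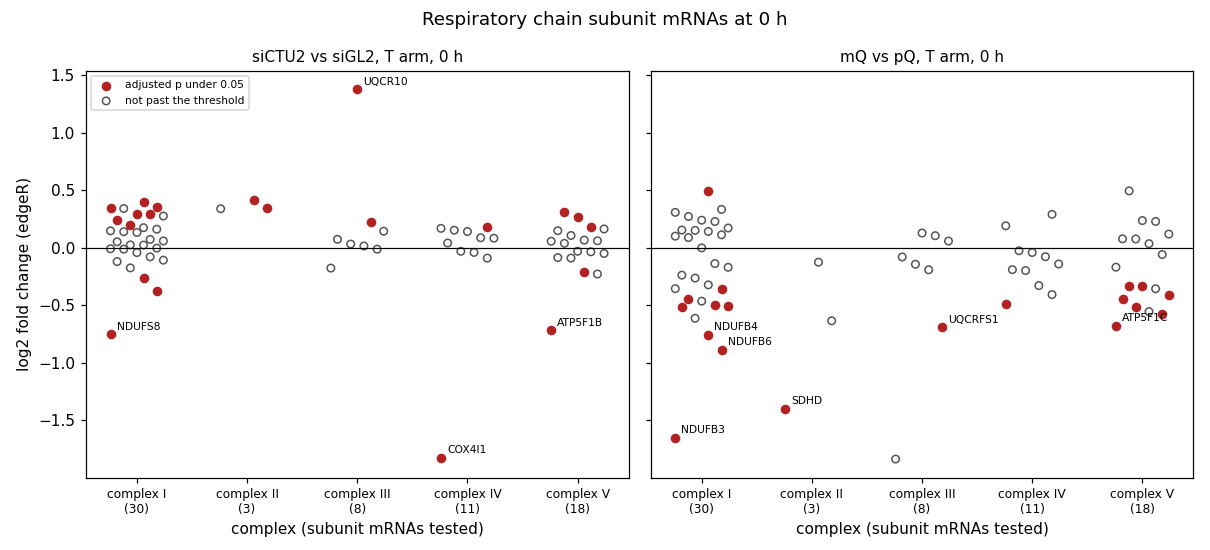
Each point is 1 subunit mRNA, grouped by complex, with the log2 fold change at 0 h in the T arm on the vertical axis, for siCTU2 against siGL2 (left) and mQ against pQ (right). Filled points passed an adjusted p under 0.05 (edgeR). COX4I1 (-1.83) and UQCR10 (1.38) lie far from the other members on the left, and 18 filled points lie below 0 and 1 above on the right. In the TCHX arm 19 of the 21 filled points on the left and 15 of the 19 on the right had the same sign, and those that turned were SDHC and ATP5F1A on the left and NDUFB3, SDHD, NDUFB5 and NDUFC1 on the right. Without pQ library 3 of that arm, a setting added after the data had been seen, 19 of the 19 on the right had the same sign.

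COX4I1 encodes the widely expressed form of subunit 4 of cytochrome c oxidase, and lies at chr16:85798633-85807068 on the plus strand (GRCh38). It had 186, 176 and 188 CPM in the 3 siCTU2 libraries and 676, 626 and 652 CPM in the siGL2 libraries, so the groups stood far apart. The mRNA was 3.55-fold lower in siCTU2 (log2 -1.83 ± 0.07 SE, adjusted p = 6.479e-13). In the TCHX arm, which is a separate set of libraries, the values were 192, 166 and 186 against 679, 606 and 653 CPM (log2 -1.83, adjusted p = 1.699e-12). COX4I2, its paralog, had 2 counts in all libraries, so no rise of the other isoform was detectable. At 3 h and 5 h COX4I1 stayed near these levels, with 164 to 284 CPM in 11 of the 12 siCTU2 libraries of both arms. The exception was the library labelled siCTU2 TCHX 5 h replicate 3, which had 513 CPM and is the one whose CTU2 level went against its label.

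NDUFS8, a core iron-sulfur subunit of complex I (chr11:68030617-68036644, plus strand), had 50.7, 40.5 and 46.9 CPM in siCTU2 and 84.1, 70.9 and 76.9 CPM in siGL2. It was 1.68-fold lower (log2 -0.75 ± 0.11 SE, adjusted p = 2.166e-05), with no overlap between groups. ATP5F1B, the catalytic beta subunit of ATP synthase (chr12:56638175-56645984, minus strand), had 427, 463 and 435 CPM in siCTU2 and 739.9, 733 and 702 CPM in siGL2. It was 1.64-fold lower (log2 -0.72 ± 0.06 SE, adjusted p = 5.493e-08), again without overlap. The other 3 lower members moved less. NDUFB7 and NDUFA8, accessory subunits of complex I, had log2 fold changes of -0.37 and -0.26, and ATP5MC3, which encodes the c subunit of the rotor ring, had -0.21. All 6 lower members were also lower past the threshold in the TCHX arm.

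UQCR10, a small subunit of complex III (chr22:29767369-29770413, plus strand), had 145, 158 and 141 CPM in siCTU2 and 57.9, 60.1 and 52.4 CPM in siGL2. It was 2.60-fold higher (log2 1.38 ± 0.09 SE, adjusted p = 1.158e-09), and the groups did not overlap. The TCHX arm gave 134, 155 and 131 against 59.9, 60.8 and 53.7 CPM (log2 1.28). No other member rose by this much. ATP5MJ, a small subunit of the membrane part of ATP synthase, rose by 0.31 in the T arm and 0.34 in the TCHX arm, and the complex I accessory subunits NDUFV3 and NDUFC1 rose by 0.40 and 0.36 in the T arm and 0.35 and 0.27 in the TCHX arm.

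Several smaller rises were not shared by both arms. SDHC, a membrane anchor of complex II, had 262, 223 and 233 CPM in siCTU2 and 198, 183 and 181 CPM in siGL2 in the T arm (log2 0.35 ± 0.08 SE, adjusted p = 0.00183), but 160, 188 and 191 against 214, 208 and 183 CPM in the TCHX arm (log2 -0.16, adjusted p = 0.177). SDHA, the flavoprotein that oxidizes succinate, NDUFB4 and NDUFA2 had log2 values of 0.42, 0.35 and 0.29 in the T arm and 0.22, 0.15 and 0.088 in the TCHX arm, where none passed the threshold. The TCHX arm as a whole called 6 of 70 members higher and 17 lower, when 18.3% and 18.9% of all genes were. Of the T arm calls, 11 of 21 were called in the same direction in the TCHX arm, which is 52.4% of the former and 47.8% of the latter, and no call was opposed. With both arms in 1 fit, 16 members were higher and 11 lower, when 24.94% and 25.25% of all genes were. This fit was an alternative added after the data had been seen. Leaving out siCTU2 library 1, siGL2 library 1 or siGL2 library 3 of the T arm each left 9 members higher. The share of all genes higher was then 14.2%, 13.8% and 14.6%. SDHD, the other membrane anchor, had 12.2, 14.2 and 11.4 CPM in siCTU2 and 10.97, 10.8 and 7.90 CPM in siGL2, and did not pass.

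**Figure D2:**
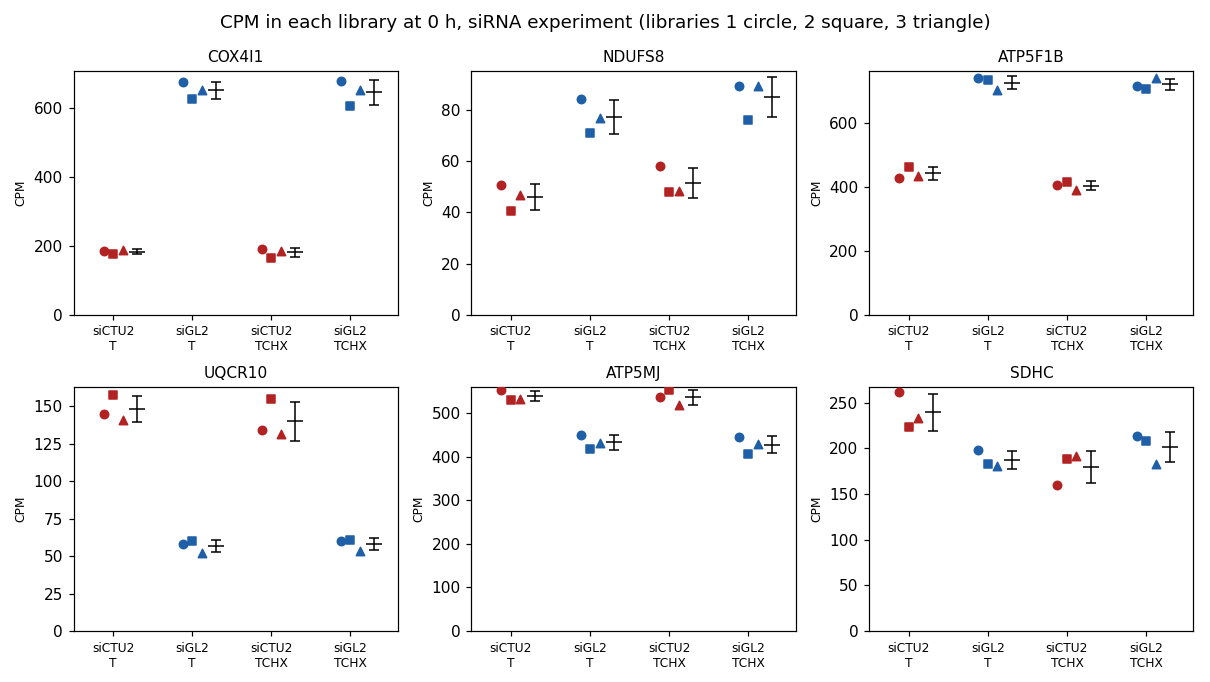
CPM of 6 subunit mRNAs in every 0 h library of the siRNA experiment, by siRNA and arm, with circles, squares and triangles for libraries 1, 2 and 3 and the mean ± SD in black. COX4I1, NDUFS8 and ATP5F1B are lower and UQCR10 and ATP5MJ higher in all siCTU2 libraries of both arms, while SDHC is higher in the T arm only, with log2 0.35, and -0.16 in the TCHX arm.

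The 3 c-subunit genes of ATP synthase, whose proteins are identical after import, differed in what was measured. ATP5MC3 had 822, 752 and 822 CPM in siCTU2 and 908, 895 and 969 CPM in siGL2 and fell by 0.21. ATP5MC1 had 323 ± 16.6 CPM against 329 ± 11.9 CPM and ATP5MC2 had 711 ± 70.7 against 659 ± 4.62 CPM (SD, n = 3), and neither passed the threshold.

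The siRNA sequences are shown because the members with the largest falls hold short matches to them. A guide strand, the strand of the duplex that is loaded into Argonaute, pairs fully with its target, and can pair with other mRNAs through its seed, here bases 2 to 8 from its 5' end. Both siCTU2 sequences match the CTU2 transcript over all 19 bases, and no member transcript holds a full match to either. The guide strands, with the seed in capitals, are as follows.
siCTU2#1 guide: uUGGUCAUgagcuugauag
siCTU2#2 guide: aAGUCCUUcauguucacgc
siGL2 guide: uCGAAGUAuuccgcguacg

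The seed matches searched for, on the sense strand only of 1 canonical protein-coding transcript per gene (GENCODE v44, GRCh38), were ATGACCA for siCTU2#1, AAGGACT for siCTU2#2 and TACTTCG for siGL2. They were found in 22.8%, 25.9% and 5.45% of 19662 transcripts. COX4I1, NDUFS8 and ATP5F1B, the 3 members with the lowest fold changes, each hold 1 match to siCTU2#1. ATP5F1B also holds 1 to siCTU2#2. The sites are printed with the match in capitals, each at the place where the 19-base siRNA would align.
COX4I1 site, 3' UTR, exon 5 of 5, chr16:85806984-85806990, plus strand: actgctaataaATGACCAg
NDUFS8 site, coding sequence, exon 6 of 7, chr11:68036319-68036325, plus strand: atgacatcgacATGACCAa
ATP5F1B site, coding sequence, exon 10 of 10, chr12:56638411-56638417, minus strand: ggcaggtgaatATGACCAt
ATP5F1B site to siCTU2#2, coding sequence, exon 3 of 10, chr12:56644936-56644942, minus strand: gagagcacagtAAGGACTa

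The run of bases shared with the siRNA around the match was 9 in NDUFS8 and 7 at each of the other sites. Of the 70 members tested, 8 hold 1 match to siCTU2#1, and their log2 fold changes ran from -1.83 to 0.14 with a median of -0.072. The other 62 hold none, and had a median of 0.078. Among the 8 are NDUFB8, ATP5PD, NDUFA5, UQCRB and UQCRC1, with values of -0.11, -0.035, 0.072, -0.013 and 0.14, so a match was also present in members that did not pass. NDUFB7, NDUFA8 and ATP5MC3, the other lower members, hold no match to either sequence. In mQ against pQ cells, which received no siRNA, the same 8 members had a median of 0.085 and the other 62 a median of -0.19. Over all genes tested in siCTU2 against siGL2, the median was 0.021 for 8073 genes with no match to siCTU2#1, -0.075 for 2156 with 1 and -0.10 for 547 with 2 or more. For siCTU2#2 the medians were 0.028 for 7607 genes with none, -0.055 for 2434 with 1 and -0.15 for 735 with 2 or more. The 3 tested members with 1 match to siCTU2#2 had a median of -0.090, and the 67 with none had 0.072. No tested member holds a match to siGL2. Over all genes the median was -0.008 for 10147 with no match to siGL2, 0.16 for 599 with 1 and -0.020 for 30 with 2 or more. The part of these matches in the falls was not tested.

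Genes of the same pathway outside the name rule were counted from fixed lists. NDUFAB1, the mitochondrial acyl carrier protein and a complex I subunit, averaged 80.1 CPM in siCTU2 and 283 CPM in siGL2, a fall of 1.83 on the log2 scale (SE 0.08, adjusted p = 3.869e-12), and it holds no match to either siCTU2 seed. CYCS, cytochrome c, was higher (log2 0.33). Of 52 assembly factors tested, 8 were higher and 10 lower, when 17.8% of all genes were higher and 18.2% lower. UQCC3, a complex III assembly factor, was highest at 0.86 and UQCC1 lowest at -0.84. Of 12 regulators of mitochondrial gene expression and biogenesis, 1 was higher and 3 lower, against the same shares of all genes. PPARGC1A, the coactivator PGC-1 alpha, had means of 2.15 and 10.3 CPM (log2 -2.23), and TFAM, which packages mitochondrial DNA, had 98.7 and 144 CPM (log2 -0.55).

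The second question was how the members differed between cells without and with glutamine at 0 h. Here the changes went mostly 1 way: 18 of 70 members were lower in mQ and 1 was higher, when 12.4% of all 12374 genes were lower and 12.5% higher. The median member stood at -0.16, and the melanocyte lineage markers summed to 856 to 1035 CPM in mQ and 1074 to 1267 CPM in pQ. The short-lived mRNAs summed to 605 to 951 CPM in mQ and 492 to 530 CPM in pQ, and the part of either list in the member values was not tested. Without pQ library 1 or pQ library 2, 7 members were lower, when 6.25% and 5.6% of all genes were. Without mQ library 3, 4 members were higher, when 12.3% of all genes were. Lower members were found in each complex, namely 8 of 30 in complex I, 1 of 3 in complex II, 1 of 8 in complex III, 1 of 11 in complex IV and 7 of 18 in complex V. Of 70 mitochondrial ribosomal protein mRNAs 22 were lower and 2 higher (median -0.22), and of 77 cytosolic ribosomal protein mRNAs 7 were lower and 10 higher (median 0.022).

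NDUFB3, an accessory subunit in the membrane arm of complex I (chr2:201071433-201085750, plus strand), had 33.2, 10.3 and 53.4 CPM in mQ and 111, 119 and 83.2 CPM in pQ. It was 3.14-fold lower (log2 -1.65 ± 0.39 SE, adjusted p = 0.00984). SDHD, at chr11:112086824-112120016 on the plus strand, had 7.67, 3.24 and 8.09 CPM in mQ and 21.5, 17.4 and 12.8 CPM in pQ, a 2.64-fold difference (log2 -1.40 ± 0.31 SE, adjusted p = 0.00762). For both mRNAs the groups did not overlap, and the second mQ library was the lowest of the 6. Without that library the log2 values were -1.21 and -1.06, and both calls held.

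Falls with less spread were seen for other members. NDUFB4, also of the membrane arm of complex I, had 184, 156 and 168 CPM in mQ and 310, 314 and 268 CPM in pQ (log2 -0.76 ± 0.11 SE, adjusted p = 0.00065). UQCRFS1, the Rieske iron-sulfur protein of complex III (chr19:29205320-29213151, minus strand), had 122, 82.1 and 120.3 CPM against 178, 182 and 182 CPM (log2 -0.69 ± 0.14 SE, adjusted p = 0.00489). ATP5MC3 had 761, 585 and 633 CPM against 1006, 1020 and 1025 CPM (log2 -0.57 ± 0.10 SE, adjusted p = 0.00277). In none of these did the groups overlap. NDUFB6, ATP5F1C, which encodes the gamma subunit of the central stalk of ATP synthase, and NDUFA8 had log2 values of -0.89, -0.68 and -0.52, and the other 10 lower members lay between -0.51 and -0.33.

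NDUFS7, a core iron-sulfur subunit of complex I at chr19:1383527-1395589 on the plus strand, was the only member called higher in the T arm. It had 101, 109 and 77.4 CPM in mQ and 70.2, 65.5 and 75.5 CPM in pQ (log2 0.50 ± 0.13 SE, adjusted p = 0.0196). The lowest mQ library thus stood close to the highest pQ library. SDHA and SDHC had log2 values of -0.13 and -0.64 and did not pass. SDHC had 142, 46.5 and 174 CPM in mQ and 198, 193 and 191 CPM in pQ, so its mean difference rested largely on the second mQ library. ATP5MC1 and ATP5MC2 did not pass, with means of 355 ± 19.1 and 694 ± 51.3 CPM in mQ and 314 ± 18.0 and 611 ± 33.9 CPM in pQ (SD, n = 3), whereas ATP5MC3 fell. COX4I1 had 761 ± 109 CPM in mQ and 646 ± 16.6 CPM in pQ.

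**Figure D3:**
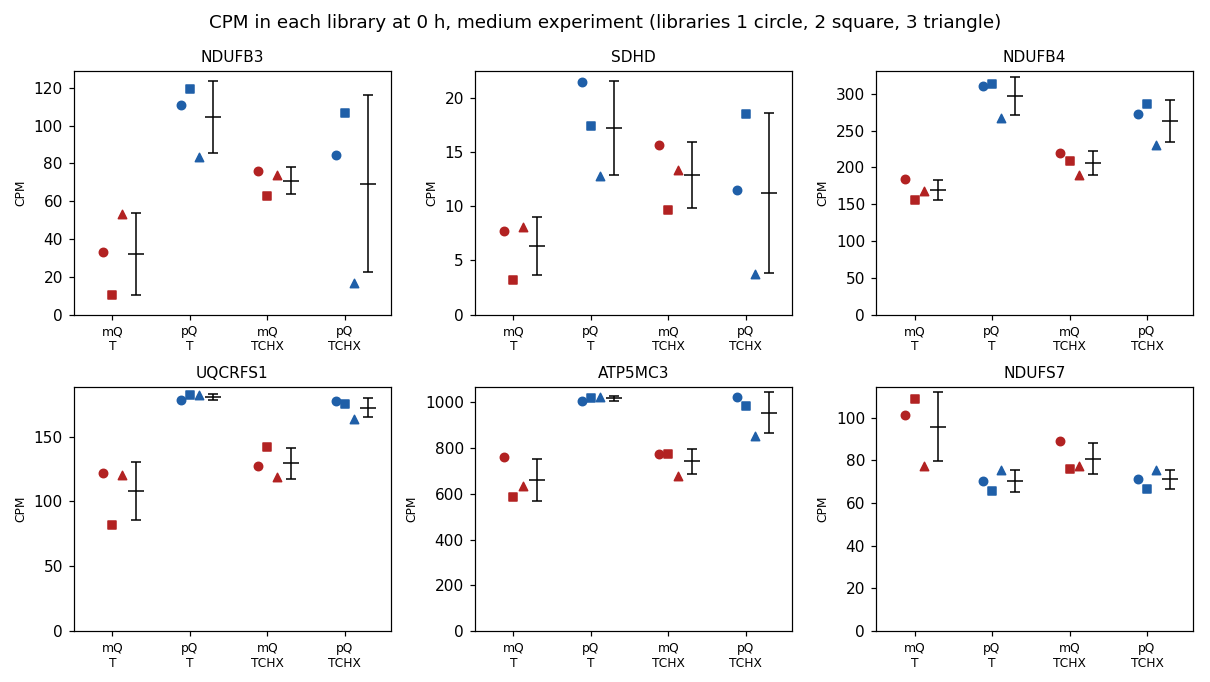
CPM of 6 subunit mRNAs in every 0 h library of the medium experiment, by medium and arm, with circles, squares and triangles for libraries 1, 2 and 3 and the mean ± SD in black. NDUFB4, UQCRFS1 and ATP5MC3 are lower in all mQ libraries of both arms. NDUFB3 and SDHD are lower in all mQ libraries of the T arm. For these 2 mRNAs pQ library 3 of the TCHX arm is far below the other two, and without it the log2 values in that arm were -0.41 and -0.22.

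The TCHX arm called 1 member lower and 0 higher (edgeR), when 2.65% of all genes were lower and 3.82% higher, so calls were fewer over the whole table. Of the 19 T arm calls, 15 had the same sign there, and NDUFB3, SDHD, NDUFB5 (0.10) and NDUFC1 (0.028) turned. This arm held a library that stood apart, pQ TCHX 0 h replicate 3. There 19940 genes had counts, against 15938 and 16338 in the other 2. Of 67 members with a mean of at least 50 counts, 3 were under 0.5 times the mean of the other 2 libraries. For mQ T 0 h library 2, which was kept in the main fit, this count was 4. Of all genes of that depth, 3.1% and 3.3% were. In the pQ library NDUFB3 had 16.9 CPM against 84.6 and 106 CPM in the other 2, SDHD had 3.73 against 11.5 and 18.5, and ATP5F1C had 121 against 202 and 195. NDUFB3 and SDHD had log2 values of 0.065 and 0.22 in the whole TCHX arm and -0.41 (adjusted p = 0.0143) and -0.22 (adjusted p = 0.557) without that library. Without it, 2 members were higher and 8 lower in the TCHX arm, when 10.4% and 9.705% of all genes were. Without it and with both arms in 1 fit, 5 were higher and 23 lower, when 19.11% and 19.1% of all genes were. The latter fit shared 18 calls with the T arm, which is 94.7% of the T arm calls and 64.3% of its own. It holds the T arm libraries themselves, so part of this overlap is built in. The TCHX arm alone without that library, a separate set of libraries, shared 6 calls with the T arm. That is 31.6% of the T arm calls and 60% of its own. With all libraries of both arms, 1 member was higher and 14 lower, when 15.1% and 14.2% of all genes were. In that fit NDUFB3, SDHD and ATP5F1C did not pass (adjusted p = 0.193, 0.277 and 0.1303, edgeR). These fits were added after the data had been seen.

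Of the pathway genes outside the rule, CYCS was lower in mQ, at 226 against 389 CPM (log2 -0.73), and NDUFAB1 had -0.15 and did not pass. Of 52 assembly factors 6 were higher and 10 lower, when 12.5% of all genes were higher and 12.4% lower. COX17, a copper chaperone for complex IV, was lower (log2 -1.003) and COX19, another copper-binding assembly factor, was higher (log2 1.08). Of the 12 biogenesis regulators 0 were higher and 2 lower, against the same shares of all genes. The 2 were TFB2M (log2 -1.23) and GABPB1 (log2 -0.56).

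The third question was how fast the members decayed once transcription was blocked. Decay was taken as the mean of T 3 h and T 5 h minus T 0 h, with libraries scaled to genes that stayed stable, so that a negative value is a loss relative to those genes. The members were lost more slowly than the median gene in all 4 conditions. Their median log2 change was -0.44 in siCTU2, -0.31 in siGL2, -0.25 in mQ and -0.45 in pQ, when the median over all genes tested was -0.71, -0.59, -0.66 and -0.71. Above the median of all genes stood 65 of 72, 66 of 70, 69 of 71 and 63 of 71 members.

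In siCTU2, 33 of 72 members were lower past the threshold and 0 higher, when 62.6% of all genes were lower and 1.55% higher. In siGL2, 4 of 70 were lower and 0 higher against 47.5% and 1.08%, in mQ 24 of 71 were lower and 0 higher against 58.6% and 1.15%, and in pQ 37 of 71 were lower and 0 higher against 64.3% and 1.17%. DESeq2 also called 0 members higher, when 1.69%, 1.28%, 1.27% and 1.33% of all genes were. It called 36, 5, 24 and 37 lower, when 64.2%, 50.1%, 59.1% and 66.0% of all genes were. With a replicate block in the edgeR fit, 40, 8, 28 and 59 were lower, when 65.4%, 57.9%, 59.7% and 73.2% of all genes were. The counts lower turned on single replicates: without replicate 1 they were 1, 1, 13 and 11, when 35.9%, 29.7%, 36.5% and 45.2% of all genes were lower. Without replicate 2 they were 21, 1, 3 and 3, when 53.9%, 27.4%, 27.4% and 39.6% were. Without replicate 3 they were 29, 34, 28 and 62, when 57.9%, 57.8%, 62.0% and 68.7% were, and 7 members were higher in mQ, when 2.56% of all genes were. The direction of these calls depends on the scale: with TMM scaling, which centers on the bulk of the genes, 22, 19, 17 and 21 members were higher, when 9.94%, 6.53%, 4.10% and 7.45% of all genes were, and 0 were lower, when 18.4%, 15.8%, 12.1% and 16.7% were. The distance from the median of all genes moved by less than the spread between replicates under TMM scaling, but with no filter on low counts it was 0.10, 0.18 and 0.095 in siCTU2, siGL2 and pQ. Within each replicate of siCTU2 it was 0.32, 0.34 and 0.17 (mean 0.28 ± 0.10 SD), and the means were 0.28 ± 0.07, 0.45 ± 0.19 and 0.26 ± 0.09 in siGL2, mQ and pQ (n = 3 each). All 12 values were above 0, and the third replicate gave the smallest in each condition.

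By complex, the distance from the median of all genes was similar for complexes I, III, IV and V and smaller for complex II in 3 of 4 conditions, although complex II holds only 3 tested mRNAs. In siCTU2 the medians were 0.30, 0.31, 0.27 and 0.28 for complexes I, III, IV and V and 0.012 for complex II. In pQ they were 0.28, 0.34, 0.21 and 0.21, with -0.011 for complex II, and in siGL2 0.33, 0.27, 0.27 and 0.32, with 0.098. By replicate, complex II stood at 0.056, 0.27 and -0.63 in siCTU2 (SD 0.47), 0.22, 0.021 and -0.29 in siGL2 (SD 0.26) and 0.33, -0.071 and -0.86 in pQ (SD 0.61), so it was lowest in the third replicate. In mQ, complex II stood at 0.85 and the others at 0.32 to 0.48. The values for complex II in mQ rest on SDHC and SDHD, whose 0 h values in the second mQ library were low. Cytosolic ribosomal protein mRNAs had distances of 0.28, 0.31, 0.37 and 0.29 in siCTU2, siGL2, mQ and pQ, close to those of the members, and mitochondrial ribosomal protein mRNAs had 0.11, 0.12, 0.18 and 0.12.

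**Figure D4:**
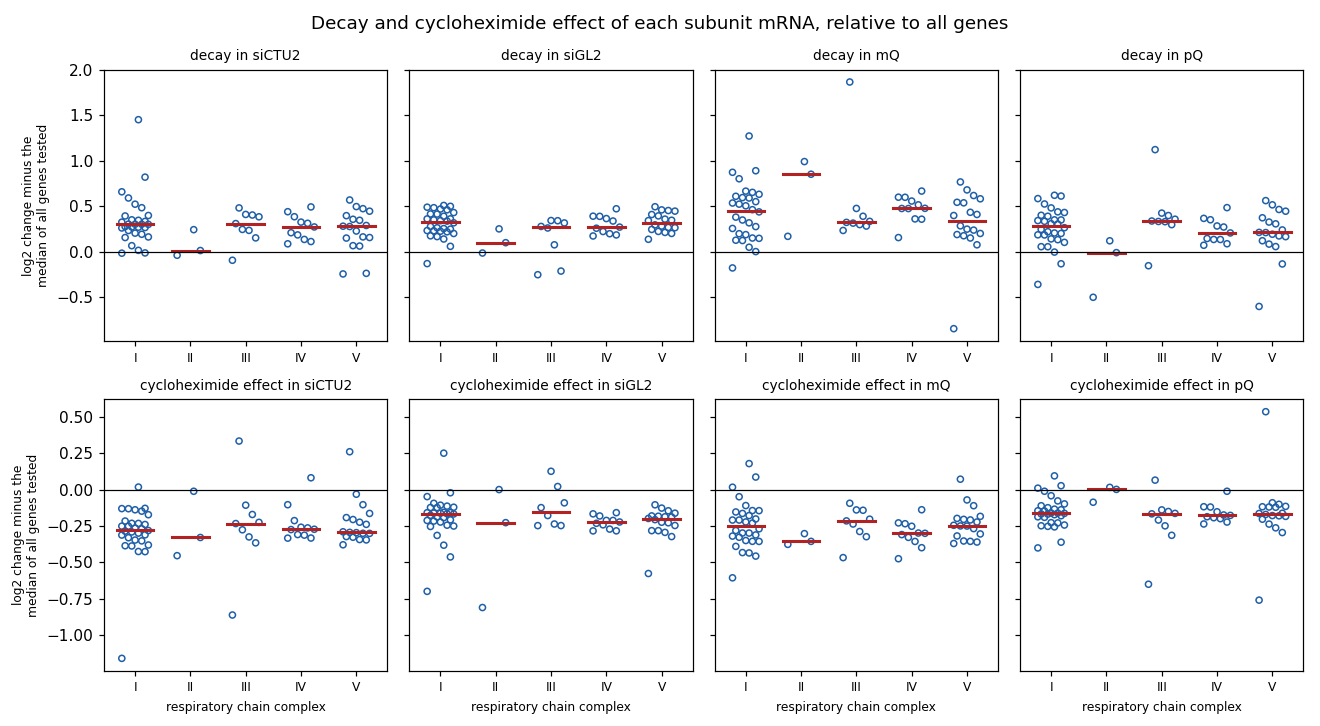
Each circle is 1 subunit mRNA, by complex, with its log2 decay (upper row) or cycloheximide effect (lower row) minus the median of all genes tested on the vertical axis, in each of the 4 conditions, and red bars mark the median of the complex. Most circles lie above 0 in the upper row and below 0 in the lower row; with TMM scaling the median distances were 0.27, 0.27, 0.42 and 0.25 in the upper row.

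Among members with at least 50 counts at 0 h, NDUFV3, an accessory subunit of the NADH-oxidizing module of complex I (chr21:42879644-42913304, plus strand), was among the 3 with the lowest values in siCTU2, siGL2 and mQ. It kept 64.4%, 75.6% and 60.8% of its 0 h level at 3 h in the 3 siCTU2 replicates, and 52.2%, 72.4% and 42.5% at 5 h. Its decay was -0.73 ± 0.13 in siCTU2, -0.73 ± 0.15 in siGL2 and -0.84 ± 0.17 in mQ (SE, adjusted p = 0.000134, 0.000633 and 0.000567), so it decayed at about the rate of the median gene, at distances of -0.017, -0.13 and -0.18 from it. NDUFV1, the flavoprotein that NDUFV3 sits beside, was at the other end. It kept 83.4%, 103% and 92.1% at 3 h and 97.4%, 90.1% and 113% at 5 h in siCTU2, with a decay of -0.056 ± 0.11 (SE) that did not pass (adjusted p = 0.663). NDUFS7 and NDUFA13, a further complex I subunit, were also among the slowest, at 0.11 and -0.12 in siCTU2 and -0.092 and -0.10 in pQ. NDUFA13 and ATP5MC1 were among the genes used as stable in the siRNA experiment, so their values there are close to 0 by construction.

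UQCRFS1 was among the fastest in siCTU2 and siGL2, with -0.81 ± 0.28 and -0.81 ± 0.29 (SE, adjusted p = 0.02 and 0.0317). At 3 h it kept 64.4%, 76.5% and 61.5% in siCTU2, and at 5 h 61.2%, 67.6% and 15.5%. The third replicate at 5 h was thus far below the other two. SDHA (-0.75 ± 0.26, adjusted p = 0.0194) in siCTU2, UQCRHL in siGL2 (-0.85, adjusted p = 0.223), ATP5MGL (-1.50, adjusted p = 0.00381) in mQ, and ATP5F1E (-1.32), SDHD (-1.22) and NDUFB3 (-1.07, adjusted p = 0.122) in pQ were also at the low end. At the high end in mQ were NDUFB3, SDHD and NDUFB6, with 0.62, 0.34 and 0.22 and adjusted p-values of 0.346, 0.601 and 0.564. UQCRFS1-DT, the only row outside the complexes that was tested, had -2.03 in siCTU2 (adjusted p = 0.0367) with 329 counts over all libraries.

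The third replicate at 5 h set a part of the members apart from the rest. Among 67 members with a mean of at least 50 counts, 16 to 25 were under 0.5 times the mean of the other two libraries in the third library of 6 of the 8 groups at 5 h, which is 23.9% to 37.3% of them, when 10.7% to 17.0% of 9779 genes of that depth were. The other 2 groups, siCTU2 TCHX and mQ T, had 3 each, and no more than 4 were low in any of the other 66 libraries. This count was chosen after the values had been seen. Library 3 of siCTU2 TCHX and of mQ T at 5 h also stood apart, with 19896 and 20364 genes with counts. The other libraries had 16874 and 17002 in siCTU2 TCHX, and 16081 and 16557 in mQ T. Library 3 of pQ TCHX at 0 h had 19940 genes with counts and 3 low members. Whether the counts of 3 at 5 h reflect the conditions or these libraries was not tested. The same names recurred: 16 members were low in the third library of at least 6 of the 8 groups, namely NDUFB3, SDHD, UQCRHL, ATP5F1C, ATP5PB, COX6C, COX7A2L, NDUFA4, NDUFA7, NDUFA8, NDUFB1, NDUFB5, NDUFB6, NDUFB7, SDHC and UQCRFS1. NDUFB3, for example, kept 6.35% at 5 h in the third siCTU2 T library against 62.5% and 93.8% in the others, and 13.1% against 127% and 74.4% in siGL2.

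**Figure D5:**
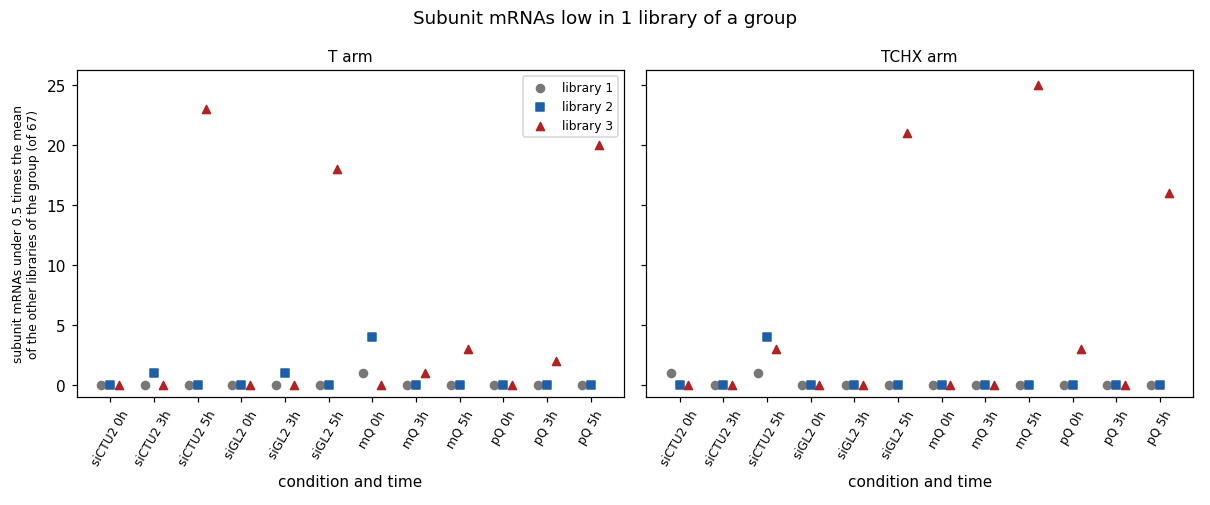
For every library, the number of subunit mRNAs (of 67) whose CPM was under 0.5 times the mean of the other two libraries of its group, by condition, time and arm, with a symbol per library number. The third libraries of 6 groups at 5 h hold 16 to 25, and no other library more than 4.

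The mRNAs that were low in these libraries and those called lower in mQ at 0 h overlapped. Of the 16 members, 8 were also called lower in mQ, and of the other 51 members 10 were, so the overlap is 50% of the former list and 44.4% of the 18 calls. Over all genes 12.4% were lower in mQ, but the same overlap was not counted for them. NDUFB3, SDHD, SDHC and UQCRHL were also the 4 members under 0.5 times in the second mQ library of the T arm at 0 h. The part of a difference between libraries in the mQ values of these mRNAs was not tested. At 3 h alone, where no library stood apart in this way, 7 members were lower in siCTU2, 2 in siGL2, 28 in mQ and 34 in pQ, when 35.96%, 28.6%, 55.4% and 55.2% of all genes were, and the member median exceeded that of all genes by 0.18, 0.22, 0.34 and 0.21.

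The fourth question was how cycloheximide changed the course of the members, as TCHX minus T over 3 h and 5 h. An mRNA whose decay needs translation is higher in TCHX. The members as a group stood below the median gene: their median was -0.058 in siCTU2, -0.14 in siGL2, -0.20 in mQ and -0.11 in pQ, when that of all genes was 0.22, 0.046, 0.048 and 0.058. Only 5 of 72, 4 of 70, 4 of 71 and 7 of 71 members stood above the median of all genes. Within replicates the distance was -0.26 ± 0.04, -0.21 ± 0.04, -0.30 ± 0.03 and -0.16 ± 0.03 (SD, n = 3 each) and below 0 in all 12.

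No member was called higher in any condition (edgeR), when 21%, 12.1%, 5.12% and 12.3% of all genes were in siCTU2, siGL2, mQ and pQ. DESeq2 also called 0 higher, when 23.9%, 14.4%, 8.21% and 14.6% of all genes were. Called lower by edgeR were 0, 0, 0 and 1, when 0.169%, 0.555%, 0.119% and 0.457% of all genes were. DESeq2 called 1, 1, 0 and 2 lower, when 0.271%, 1.01%, 0.379% and 0.772% of all genes were. At an unadjusted p under 0.05 in either direction (edgeR) there were 2 of 72, 4 of 70, 2 of 71 and 4 of 71 members. Over all genes there were 4204 of 13638, 2814 of 13161, 2567 of 13442 and 2863 of 13347. With TMM scaling, 19, 8, 7 and 7 members were lower, when 4.05%, 2.67%, 1.39% and 1.60% of all genes were. Without replicate 3, 10 were lower in siGL2 and 5 in pQ, when 2.99% and 2.16% of all genes were. In the same setting 1 was higher in siGL2 and 1 in mQ, when 16.6% and 23.9% of all genes were. The share of all genes higher in mQ turned on single libraries: it was 21.1% without mQ T 5 h replicate 3, in which 20364 genes had counts against 16081 and 16557 in the other two, 23.9% without replicate 3 in all groups, 0.0147% without replicate 1 and 0.00749% without replicate 2. Without that 1 library 0 members were higher and 0 lower in mQ (edgeR). The 1 member called was NDUFC2, an accessory subunit of complex I, in pQ. It kept 73.2%, 78.2% and 75.8% at 3 h with triptolide alone and 53.4%, 54.0% and 52.6% with cycloheximide (effect -0.34 ± 0.10 SE, adjusted p = 0.0251), and at 5 h the ranges overlapped, at 75.9% to 109% and 68.8% to 89.2%.

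By complex, the median effect minus that of all genes was -0.28, -0.33, -0.23, -0.27 and -0.29 for complexes I to V in siCTU2 and -0.17, -0.23, -0.15, -0.22 and -0.20 in siGL2. In mQ it was -0.25, -0.36, -0.21, -0.30 and -0.25, and in pQ -0.16, 0.0017, -0.17, -0.18 and -0.17. Cytosolic ribosomal protein mRNAs had -0.26, -0.18, -0.31 and -0.18 in siCTU2, siGL2, mQ and pQ, and mitochondrial ribosomal protein mRNAs had -0.084, -0.030, -0.11 and -0.058, closer to the median gene. Of 52 assembly factor mRNAs, 8, 5, 2 and 8 were called higher, when 21%, 12.1%, 5.12% and 12.3% of all genes were. The mRNAs for 12 biogenesis regulators stood on the other side, at 0.21, 0.11, 0.21 and 0.20, with 3, 2, 1 and 4 called higher.

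The last question was whether decay or the cycloheximide effect differed between conditions. For siCTU2 minus siGL2, 0 of 74 members differed in decay, when 0.105% of all genes did, and 0 of 74 in the cycloheximide effect, when 0.379% did (edgeR interaction terms). At an unadjusted p under 0.05 there were 0 members in both, when 772 and 1316 of 14259 genes were. For mQ minus pQ, 0 of 72 differed in decay and 0 of 72 in the cycloheximide effect, when 0% of all genes did in either. At an unadjusted p under 0.05 there were 5 of 72 members in decay, when 878 of 14177 genes were. For the cycloheximide effect there were 0 at that level, when 525 of 14177 genes were. DESeq2 was not run on these terms. The median difference in decay was -0.13 for siCTU2 minus siGL2, against -0.091 over all genes, and 0.25 for mQ minus pQ, against 0.081. The range over members was wide, from -0.66 for ATP5MGL to 2.64 for NDUFA11 in the latter, both with few counts.

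Without the third replicate, 15 of 71 members decayed less in mQ than in pQ, when 3.48% of all genes were higher and 3.33% lower. UQCRHL (4.37), NDUFB3 (2.44), SDHD (1.95), SDHC (1.08) and NDUFB6 (1.01) led them on the log2 scale, and 4 of these 5 were under 0.5 times the other libraries in the second mQ library at 0 h. The contrast subtracts T arm 0 h libraries that also gave the 0 h calls, so these results are not independent of those calls. NDUFB3, SDHD and NDUFB6 were called lower in mQ at 0 h, and UQCRHL and SDHC were not. At 3 h alone, 0 members passed.

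The TDD index is the difference between TCHX and T divided by the 0 h level. For siCTU2 minus siGL2, 0 of 70 members were higher and 0 lower at an unadjusted p of at most 0.05 in a linear model with time and replicate, when 7.28% and 0.873% of all genes were. For mQ minus pQ, 1 was higher, ATP5MC1 (mean index -0.031 in mQ and -0.14 in pQ, unadjusted p = 0.0277 and adjusted p = 0.952 in the linear model fitted to every gene), and 0 were lower, when 3.48% and 1.3% of all genes were. That count of lower members turned on the scale and the 0 h library: it was 27 with TMM scaling, when 5.96% of all genes were lower, and 33 with each arm's own 0 h library, when 16.7% were. The smallest adjusted p among members was 0.664 and 0.952.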

How the data were processed

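The deposited file holds raw counts per gene for 72 QuantSeq libraries. Per the labels and methods, the authors trimmed forward reads with fastp 0.20.1, aligned them to GRCh38.p13 with HISAT2 2.2.1 and counted with HTSeq 0.13.5 on the NCBI annotation. The members and gene lists were chosen with earlier results of these data known. At 0 h, genes that passed filterByExpr were compared with TMM scaling and the edgeR 4.0.16 quasi-likelihood test in R 4.3.3, fitted on all genes. Decay and cycloheximide effects used median-of-ratios scaling over genes stable after triptolide (198 names in the siRNA and 82 in the medium experiment; CPM above 0.2 at 0 h and at least 1.1 times that later). The TDD index was fitted by linear models for genes with at least 10 normalized counts. Adjusted p-values are Benjamini-Hochberg over all genes. DESeq2 1.42.0, other scalings, filters and left-out libraries were alternatives. Named members were those past the threshold at 0 h with the 8 largest rises or falls, a mean of at least 50 counts and the same direction in all 3 same-numbered pairs, the 3 lowest and 3 highest in each decay, and all called in the rest, besides complex II, the c-subunit genes and isoform sets. A result that the naming rule selects is not reported here.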

Additional observations from a re-analysis of the deposited data

How the results depend on the processing

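Libraries held 5987692 counts or more, and 19 members were too sparse to test at 0 h. The 3 libraries of a group limit the precision. Setting by setting, 272 of the summary values held within 1.5 times or 1 SD and 100 moved.

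At 0 h, the siCTU2 counts of 15 higher and 6 lower became 6 and 17 in the TCHX arm, with a median of -0.054. In that arm 18.3% of all genes were higher and 18.9% lower. In both arms 11 were lower, when 25.25% of all genes were, with a median of 0.016. SDHC turned to -0.16 and ATP5F1A to -0.089 in the TCHX arm. Leaving out 1 library gave 9 to 16 higher and a median of 0.043 to 0.088. For mQ, 3 were higher with no filter, 2 with DESeq2 and 0 in the TCHX arm, when 8.04%, 12.6% and 3.82% of all genes were. In the TCHX arm 1 was lower, when 2.65% of all genes were. There the median was -0.070 and NDUFB3 (0.065), SDHD (0.22), NDUFB5 (0.10) and NDUFC1 (0.028) turned. Without the third pQ library, the TCHX arm gave 2 higher and 8 lower, when 10.4% and 9.705% of all genes were, and a median of -0.059. Both arms gave 5 higher, when 19.1% of all genes were. Leaving out 1 library gave 0 to 4 higher and 7 to 20 lower, with the fewest lower (7) without pQ library 1 or 2.

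For decay, TMM scaling gave 22, 19, 17 and 21 members higher and 0 lower in siCTU2, siGL2, mQ and pQ. With genes stable at both times, 65, 46, 62 and 63 were lower, when 82.9%, 78.0%, 84.8% and 78.4% of all genes were. This scaling rests on 8 and 3 stable genes. At 3 h alone 7 and 2 were lower in siCTU2 and siGL2. Leaving out 1 replicate gave 1 to 29, 1 to 34, 3 to 28 and 3 to 62 lower and, in mQ, 0 to 7 higher, the most without replicate 3. With no filter, 2 were higher in mQ, when 1.11% of all genes were. The distance from the median gene was then 0.10, 0.18 and 0.095 in siCTU2, siGL2 and pQ.

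For the cycloheximide effect, TMM scaling gave 19, 8, 7 and 7 lower. DESeq2 gave 1, 1 and 2 lower in siCTU2, siGL2 and pQ, when 0.271%, 1.01% and 0.772% of all genes were. Scaling to genes stable at both times gave 26 lower in pQ, when 11.6% of all genes were. With no filter, 1 was higher in siCTU2, when 11.35% of all genes were, and 0 lower in pQ, when 0.277% were. The distance was then -0.20 in mQ and -0.12 in pQ. At 3 h alone 0 were lower in pQ, and the distance was -0.18, -0.22 and -0.12 in siCTU2, mQ and pQ. Without the library that stood apart it was -0.23 in siCTU2 and -0.35 in mQ, and with the 0 h difference subtracted -0.19, -0.37 and -0.19 in siCTU2, mQ and pQ, with 0 lower in pQ. Leaving out 1 replicate gave 0 to 1 higher in siGL2 and in mQ, 0 to 10 lower in siGL2, 0 to 5 lower in pQ and a distance of -0.29 to -0.25 in mQ. The decay difference between mQ and pQ gave 0 to 15 members.

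For the TDD index, siCTU2 minus siGL2 gave 3 lower with TMM scaling, when 2.26% of all genes were. It gave 2 higher with each arm's own 0 h library, when 16.2% of all genes were, and 0 to 1 higher without 1 replicate, when 3.28% to 9.50% were. For mQ minus pQ, TMM scaling gave 0 higher and 27 lower, and the own 0 h library 2 higher and 33 lower. Leaving out 1 replicate gave 0 to 4 higher, when 1.88% to 12.1% of all genes were.

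At 0 h, same-numbered libraries of the 2 conditions deviated together only in part. Of the correlations of their deviations, 2 of 3 passed 0.1 in the siRNA and 1 of 3 in the medium experiment. Between the groups of 1 condition, 35, 40, 32 and 42 of 45 did in siCTU2, siGL2, mQ and pQ, so not every pair passed, but many same-numbered libraries deviated together. With a replicate block, 18 members were higher and 6 lower in siCTU2 at 0 h, when 20.75% of all genes were higher and 20.75% lower. In mQ at 0 h 1 was higher and 17 lower, when 9.76% and 10.1% of all genes were. In the decay of siGL2 and pQ 8 and 59 were lower, when 57.9% and 73.2% of all genes were. For the cycloheximide effect 2 were lower in pQ, when 0.802% of all genes were, and the distance in mQ was -0.28. The TDD index over the mean of times with a replicate block gave 1 higher for siCTU2 minus siGL2, and 0 higher and 1 lower for mQ minus pQ. The cause of these shifts was not tested.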
